A study of Mus musculus with 2 samples.

Results

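The Ly6 genes Ly6a, Ly6c1, Ly6c2, Ly6d, Ly6e and Ly6i were followed through the cell classes of the metastatic mouse lung. These 6 genes, of 27999 genes listed in each count table, were chosen by name with measured values of these data known, so their levels are given as a description. The data were droplet-based single-cell RNA sequencing counts of 2 libraries of whole perfused lung, each from 1 female FVB/NJ mouse aged 10 weeks when it received 500000 Met-1 cells intravenously. Met-1 is a mouse mammary carcinoma line that grows in immunocompetent FVB/NJ hosts and forms lung metastases. The low burden lung was collected at week 1 and the high burden lung at week 3, and the labels name no other agent. No lung without injected cells was analysed here, and the burden, the time after injection and the individual mouse cannot be told apart. With 1 mouse and 1 library per group there was no test, and every interval given here is a 95% interval that covers counting error only.

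Ly6 proteins are small surface proteins with a finger-shaped fold, held in the outer membrane by a lipid anchor. Their use as surface labels is better known than their functions. Ly6a is Sca-1, a marker of haematopoietic stem cells that is also present on endothelium, mesenchymal progenitors and activated T cells. Ly6c1 and Ly6c2 encode the Ly6C antigen, which is bright on inflammatory monocytes and is also carried by endothelium and memory T cells. Ly6d marks lymphoid progenitors committed to the B cell lineage. Ly6e restrains the entry of several viruses, and several genes of the family, Ly6a, Ly6e and Ly6i among them, can be induced by interferons.

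All 6 genes lay on chromosome 15 within 350 kb of mm10 (GRCm38), between positions 74762056 and 75111970, with 1 gene on the plus strand and 5 on the minus strand. In chromosomal order the GENCODE annotation placed Ly6d (ENSMUSG00000034634) at chr15:74762056-74763620 on the minus strand, Ly6e (ENSMUSG00000022587) at chr15:74955051-74959905 on the plus strand and Ly6i (ENSMUSG00000022586) at chr15:74979534-74983430 on the minus strand. They were followed, all on the minus strand, by Ly6a (ENSMUSG00000075602) at chr15:74994877-74998031, Ly6c1 (ENSMUSG00000079018) at chr15:75044018-75048830 and Ly6c2 (ENSMUSG00000022584) at chr15:75108158-75111970. No annotated gene overlapped any of them. Ly6c1 and Ly6c2 are close copies. Of the 90-base stretches in the last 500 bases of the annotated transcripts, where a 3′ library places its reads, 13.8% of those of Ly6c1 also occurred in Ly6c2 or Ly6a and 19.3% of those of Ly6c2 also occurred in Ly6c1. The counts of this pair, and the balance of Ly6c1 and Ly6a given below, are less certain for that reason. Whether reads from shared stretches were lost or given to the wrong gene was not tested. The genome build comes from another strain than FVB/NJ, and the part of strain differences in the levels was not tested.

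Promoter sequences were at hand in the RefSeq table (GRCm38.p6) for 2 of the 6 genes, Ly6c1 and Ly6c2, and are shown because these closely related genes had their highest levels in different cell classes. Each line gives the 250 bases before the annotated start, written 5′ to 3′ on the minus strand that carries the gene, with capitals for the letters that had no match in the other promoter in a global alignment. Ly6c1 covers chr15:75048838-75049087 and Ly6c2 covers chr15:75111972-75112221.
Ly6c1: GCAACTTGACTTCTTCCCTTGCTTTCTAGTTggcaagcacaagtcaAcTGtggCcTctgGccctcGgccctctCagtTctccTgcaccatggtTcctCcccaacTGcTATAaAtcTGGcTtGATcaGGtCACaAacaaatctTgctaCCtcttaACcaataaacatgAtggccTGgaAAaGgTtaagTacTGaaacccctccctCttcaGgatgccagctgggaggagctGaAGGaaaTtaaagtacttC
Ly6c2: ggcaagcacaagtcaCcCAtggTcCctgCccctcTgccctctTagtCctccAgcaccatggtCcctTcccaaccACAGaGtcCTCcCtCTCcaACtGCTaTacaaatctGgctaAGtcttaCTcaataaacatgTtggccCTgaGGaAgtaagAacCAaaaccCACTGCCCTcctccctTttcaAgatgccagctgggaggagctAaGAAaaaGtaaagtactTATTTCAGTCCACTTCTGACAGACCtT
The promoters shared 164 of their 250 letters (65.6%), which leaves 86 capitals in each. The core of an interferon-stimulated response element, spelled as GAAA, any 2 bases and GAAA again and searched on both strands, were in 2.98% of 32851 promoters of this length and in neither of these. The STAT site TTCNNNGAA was in 7.02% of the promoters and again in neither. The letters TATAAA were in 12.4% of the promoters, with 1 match in Ly6c1, 143 bases before the start, and none in Ly6c2. A match describes letters in this window and says nothing of which factors bind there.

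The low burden library held 2668 barcodes with 14041471 UMIs (unique molecular identifiers, 1 for each captured RNA molecule) and the high burden library held 3121 barcodes with 52723173 UMIs. After the cell filter there were 2473 and 3033 cells with medians of 4073 and 13998 UMIs. The libraries shared 11 barcode sequences. Cells were put into classes by marker genes that included no Ly6 gene, and each class is named "-like" because its name was rebuilt from markers. At low and high burden the gates found 580 and 202 endothelial-like, 756 and 987 myeloid-like, 184 and 53 lymphoid-like, 228 and 107 epithelial-like and 511 and 102 stromal-like cells, beside 0 and 1206 metastatic-like cells. Levels are summed UMIs per 1000000 UMIs of the class (CPM). A gene was counted as past 2-fold where its CPM differed at least 2-fold between the libraries with at least 20 UMIs over both.

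Ly6a, Ly6c1 and Ly6e were the abundant members, and each had its highest class level in endothelial-like cells. Ly6a stood at 3289 CPM (3230.4 to 3347) at low burden and 2339 CPM (2277 to 2401) at high burden. Ly6c1 was at 1738 CPM (1696 to 1781) and 1129 CPM (1086 to 1172). Ly6e was at 1949.5 CPM (1905 to 1995) and 1415 CPM (1367 to 1463). All 3 were lower at high burden by more than the counting error. Expressed as log2 of the CPM at high burden over that at low burden (the log2 ratio), the difference was -0.49 for Ly6a (-0.54 to -0.45), -0.62 for Ly6c1 (-0.69 to -0.56) and -0.46 for Ly6e (-0.52 to -0.40). Ly6c2 (8.35 and 9.32 CPM), Ly6d (14.5 and 17.8 CPM) and Ly6i (2.96 and 4.24 CPM) were scarce in the same cells. None of the 6 genes passed 2-fold here, where 5.41% of the 11031 genes measured were at least 2-fold higher at high burden and 5.18% at least 2-fold lower.

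**Figure D1:**
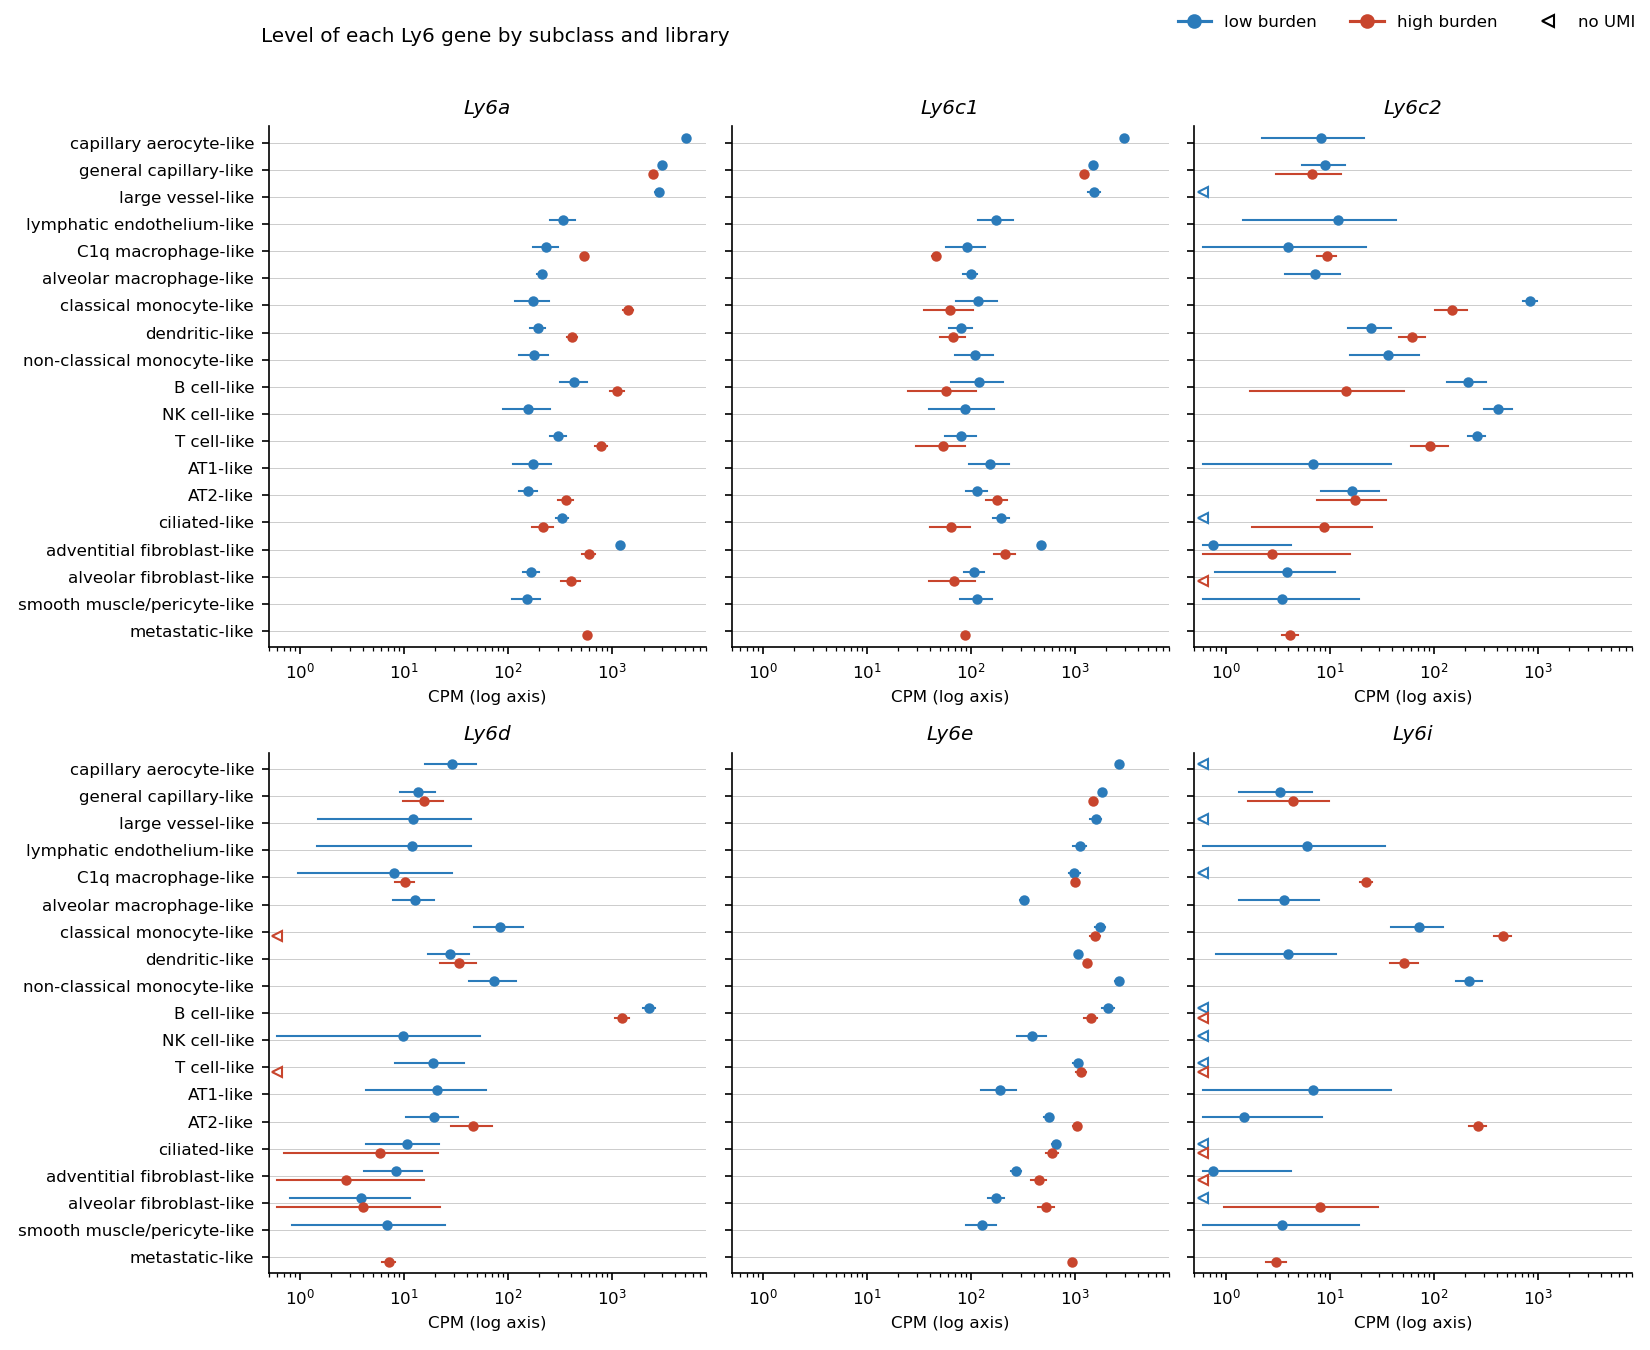
Level of each Ly6 gene in CPM, on a log axis, by subclass of cells and library, with 95% counting intervals. Ly6a and Ly6c1 lie highest in blood vessel endothelial-like cells, Ly6e in aerocyte-like cells at low burden and classical monocyte-like cells at high burden (1560.0 CPM), Ly6d in B-like cells and Ly6c2 in classical monocyte-like cells at low burden, where it reaches 839 CPM.

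The endothelial-like cells were not uniform. Capillary aerocyte-like cells, the thin alveolar endothelium close to the air space, held 5109.9 CPM of Ly6a, 2975 CPM of Ly6c1 and 2644 CPM of Ly6e at low burden (87 cells). General capillary-like cells, which include the progenitors of the capillary bed, held 2994, 1472 and 1828 CPM of the same genes (287 cells). At high burden the levels of both subclasses were close. The 17 aerocyte-like cells held 2541 CPM of Ly6a, 1166 CPM of Ly6c1 and 1301 CPM of Ly6e, beside 2479, 1210.4 and 1500.2 CPM in the 118 general capillary-like cells. Within the general capillary-like cells alone the log2 ratio was -0.27 for Ly6a (-0.33 to -0.21) and -0.28 for both Ly6c1 and Ly6e. Lymphatic-like cells at low burden had less Ly6a (337 CPM, 255 to 438) and Ly6c1 (175 CPM) than any blood vessel subclass and held 1108 CPM of Ly6e. With 22 lymphatic-like cells at low burden and 1 at high burden, no ratio is given for them.

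Endothelial-like cells held 75.6% of the Ly6a UMIs of the low burden library and 27.9% of its UMIs over all genes. At high burden they held 16.2% of the Ly6a UMIs, against 50.4% in metastatic-like and 17.6% in myeloid-like cells. Over all kept cells, Ly6a was at 1215 and 660.2 CPM, Ly6c1 at 621 and 135 CPM and Ly6e at 1002 and 981 CPM at low and high burden. Endothelial-like cells were 23.5% of the kept cells at low burden and 6.66% at high burden, so the level of the whole lung mixed the makeup of the tissue with the level in each class.

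Low levels of an abundant endothelial RNA in other cells can be free RNA captured with them. The endothelial marker genes were followed in every class for that reason. In myeloid-like cells their median level was 4.52% of the endothelial-like level at low burden and 2.68% at high burden. Ly6c1 in myeloid-like cells stood near this at low burden, at 5.47% of its endothelial-like level, and at 4.32% at high burden. Its myeloid levels were 95.2 and 48.8 CPM, of which the marker median would give 78.5 and 30.2 CPM, and no change is read from them. Ly6a in myeloid-like cells was at 6.07% of its endothelial-like level at low burden and at 24.2% at high burden, far above the markers. Ly6e was well above the markers in both libraries, at 42.3% and 73.5%. These markers follow free RNA of endothelial-like cells only. At high burden metastatic-like cells held 50.4% of the Ly6a UMIs and 54.9% of the Ly6e UMIs, and free RNA from them was not measured. The balance of Ly6c1 and Ly6a within a class was followed as well. Endothelial-like cells held 0.53 and 0.48 Ly6c1 UMIs per Ly6a UMI at low and high burden. Myeloid-like cells held 0.48 and 0.086, lymphoid-like cells held 0.29 and 0.061, and metastatic-like cells held 0.15. At low burden the myeloid-like balance lay near that of the endothelium, and at high burden it lay far under it. The metastatic-like balance also lay under that of the endothelium, and the part of free RNA from metastatic-like cells in the high burden balance was not tested.

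**Figure D2:**
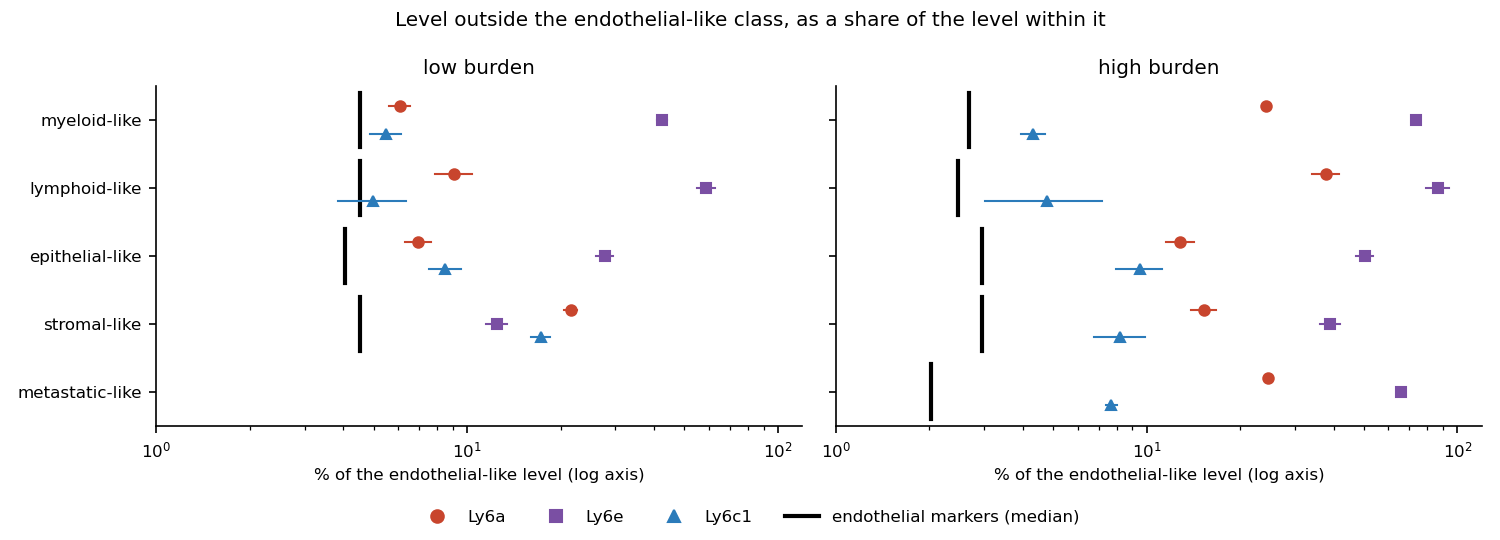
Level of Ly6a, Ly6c1 and Ly6e in each other class as a percentage of the endothelial-like level in the same library, on a log axis, beside the median of the endothelial marker genes. Ly6e lies above the markers in every class, and Ly6a in myeloid-like cells moves from 6.07% at low burden to 24.2% at high burden.

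Ly6a was higher at high burden in both immune classes. In myeloid-like cells it was at 199.5 CPM (184 to 216) at low burden and 565 CPM (551 to 580) at high burden, a log2 ratio of 1.502 (1.38 to 1.62). In lymphoid-like cells it was at 298 CPM (260.0 to 341) and 881 CPM (795 to 975), a log2 ratio of 1.56 (1.32 to 1.81). The share of cells with a Ly6a UMI, after each cell was thinned to 3000 UMIs, was 42.3% and 55.6% in myeloid-like cells and 43.6% and 71.7% in lymphoid-like cells. Without thinning the shares were 54.2% and 86.6% in myeloid-like and 57.6% and 86.8% in lymphoid-like cells. Smooth muscle or pericyte-like cells are set beside them. They had the lowest Ly6a level at low burden among the named subclasses of at least 20 cells. Of these 47 and 19 cells, 37.8% and 10.5% had a Ly6a UMI after thinning, and 53.2% and 68.4% without thinning at median depths of 5247 and 11762 UMIs, beside 3572 and 9981 UMIs in myeloid-like and 3228 and 6607 UMIs in lymphoid-like cells. After thinning, the low burden shares of both immune classes lay little above this share. Their high burden shares lay above its interval of 1.30% to 33.1%, which rests on 19 cells. The high burden shares of stromal-like (39.2%) and epithelial-like cells (45.8%) lay above this interval too, so it does not set the immune classes apart. By level, the smooth muscle or pericyte-like cells held 151 CPM of Ly6a at low burden and 82.3 CPM at high burden (44 and 22 UMIs). Their high burden level lay under those of both immune classes. It also lay under those of stromal-like (357 CPM) and epithelial-like cells (299.8 CPM). Without thinning the smooth muscle or pericyte-like share at high burden had an interval of 43.4% to 87.4%, which takes in the shares of both immune classes.

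The myeloid-like class was made of different cells in the 2 libraries. Alveolar macrophage-like cells, the resident macrophages of the air space, were 465 of 756 at low burden and 4 of 987 at high burden, while macrophage-like cells with C1q genes were 57 and 812. Within the C1q macrophage-like cells Ly6a was at 231 CPM at low burden and 540.0 CPM at high burden (log2 ratio 1.23, 0.85 to 1.63), so the direction was the same inside this subclass. Ly6e was near level in them, at 986 and 989 CPM, although it was higher at high burden over the class (825 and 1040.4 CPM, log2 ratio 0.33, 0.27 to 0.40). Alveolar macrophage-like cells at low burden held 323 CPM of Ly6e and 209 CPM of Ly6a. Dendritic-like cells, which present antigen to T cells, held 192 CPM of Ly6a at low burden and 411 CPM at high burden (log2 ratio 1.10).

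By class, Ly6c2, the Ly6C gene of monocytes, was highest in lymphoid-like cells, at 264 and 79.7 CPM at low and high burden. Myeloid-like cells held 61.9 and 22.6 CPM. Among the named subclasses of at least 20 cells, Ly6c2 was highest in classical monocyte-like cells in both libraries. It stood at 839 CPM in the 45 cells of low burden and at 148 CPM in the 27 cells of high burden, a log2 ratio of -2.50 (-3.08 to -1.96). The same cells held 172 and 1420.5 CPM of Ly6a (log2 ratio 3.04, 2.51 to 3.62) and 72.2 and 457 CPM of Ly6i (log2 ratio 2.66, 1.83 to 3.62). Ly6e differed little, at 1744 and 1560.0 CPM (log2 ratio -0.16). After thinning, 72.2% of the low burden and 22.2% of the high burden cells had a Ly6c2 UMI, and 13.9% and 44.4% had a Ly6i UMI. Without thinning these shares were 75.6% and 44.4% for Ly6c2 and 13.3% and 51.9% for Ly6i. The leading genes of the classical monocyte-like cells at high burden included Cd74, H2-Aa and H2-Ab1, genes of antigen presentation, beside the monocyte receptor Ccr2. How far a different kind of cell passed the gate in each library was not tested. Non-classical monocyte-like cells, which patrol the vessel wall, numbered 61 at low burden and 1 at high burden. At low burden they held 36.5 CPM of Ly6c2, 219 CPM of Ly6i and 2617 CPM of Ly6e, the highest Ly6e level of any myeloid-like subclass.

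Over the whole myeloid-like class, 4 of the 6 genes passed 2-fold. Ly6a and Ly6i (22.2 and 49.05 CPM, log2 ratio 1.15, 0.79 to 1.52) were higher at high burden, where 10.5% of 11707 genes were at least 2-fold higher. Ly6c2 (61.9 and 22.6 CPM, log2 ratio -1.45, -1.73 to -1.17) and Ly6d (30.2 and 15.1 CPM, log2 ratio -1.003, -1.38 to -0.63) were lower, where 16% of genes were at least 2-fold lower. The class value of Ly6c2 was not shared by every subclass. It was higher at high burden in dendritic-like cells (25.0 and 61.9 CPM, log2 ratio 1.31, 0.52 to 2.16, with 23 of the 50 UMIs at high burden in 1 cell) and in myeloid-like cells of no subclass (61.3 and 191.8 CPM, log2 ratio 1.64, 0.67 to 2.77). In C1q macrophage-like cells it had 1 UMI at low burden and 85 UMIs at high burden (3.98 and 9.32 CPM, log2 ratio 1.23, -1.29 to 6.55). Ly6d lay just past the limit and Ly6c1, at -0.96, just short of it. When the subclasses found in both libraries were given the same weights, the log2 ratio of Ly6i was 2.99 and that of Ly6d was -0.44. In the C1q macrophage-like cells Ly6i had 0 UMIs in 57 cells at low burden and 203 UMIs in 92 of 812 cells at high burden (22.3 CPM). With 3 UMIs put in place of the 0, this is a log2 ratio of 0.90, and the exact interval starts at 0.59. In dendritic-like cells Ly6i was at 3.94 and 52.0 CPM (log2 ratio 3.72, 2.08 to 6.06). Myeloid-like cells of no subclass held 12.3 and 510.3 CPM of Ly6i (log2 ratio 5.38, 3.50 to 8.44). At high burden these 40 cells held 165 of the 518 Ly6i UMIs of the class, and 15 of them had a Ly6i UMI.

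**Figure D3:**
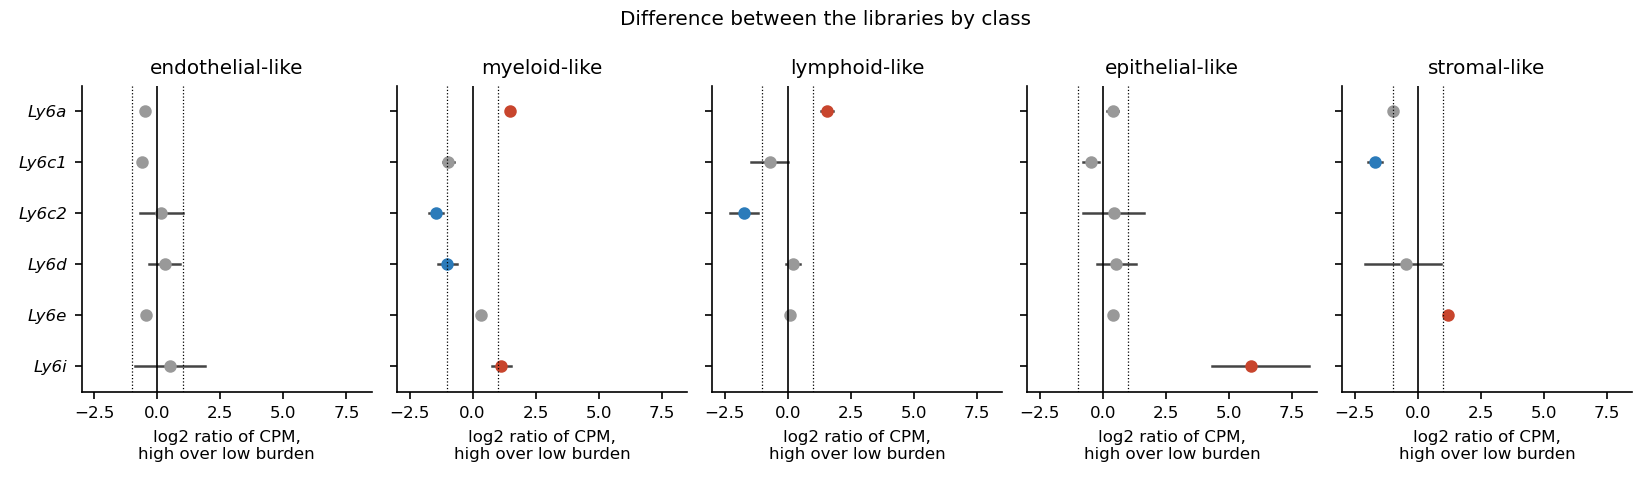
Log2 ratio of CPM, high over low burden, of each Ly6 gene in the 5 classes, with 95% counting intervals and lines at 2-fold. Ly6a lies to the right in myeloid-like and lymphoid-like cells and to the left in endothelial-like and stromal-like cells, and Ly6i in epithelial-like cells is at 5.90.

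Among lymphoid-like cells, Ly6d marked the B-like cells. It was at 2259 CPM in the 30 B-like cells at low burden, all of which had a UMI, and at 1249 CPM in the 21 B-like cells at high burden, of which 20 had one (log2 ratio -0.85, -1.14 to -0.57). Over the class Ly6d stood at 352 and 410.3 CPM (log2 ratio 0.22, -0.06 to 0.50), and B-like cells were 30 of 184 lymphoid-like cells at low burden and 21 of 53 at high burden. B-like cells also held 432 and 1121 CPM of Ly6a (log2 ratio 1.38) and 2084 and 1421 CPM of Ly6e (log2 ratio -0.55). T-like cells, on which Sca-1 is a sign of activation, held 300.5 CPM of Ly6a at low burden (97 cells) and 776 CPM at high burden (31 cells), a log2 ratio of 1.37 (1.05 to 1.70). Their Ly6e was near level, at 1060.1 and 1131 CPM.

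Ly6c2 in lymphoid-like cells was at 264 CPM (228 to 304) at low burden and 79.7 CPM (55.2 to 111) at high burden, a log2 ratio of -1.73 (-2.30 to -1.20). In T-like cells, where Ly6C is carried by memory cells, it was at 258 and 92.5 CPM (log2 ratio -1.48), and 13 of the 26 UMIs at high burden came from 1 cell. NK-like cells, the cytotoxic innate lymphocytes, held 416 CPM of Ly6c2 at low burden (28 cells) and numbered 1 at high burden. In B-like cells 21 of the 23 Ly6c2 UMIs at low burden came from 1 cell. Ly6a and Ly6c2 were the lymphoid-like calls, 1 of 6 genes in each direction, beside 6.93% of 5509 genes at least 2-fold higher and 11.8% at least 2-fold lower. Ly6i had 0 UMIs in lymphoid-like cells of both libraries. The exact intervals reach 5.07 CPM at low burden and 8.65 CPM at high burden.

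Ly6i was the 1 member past 2-fold in epithelial-like cells, where 3.53% of 9350 genes were at least 2-fold higher at high burden and 8.49% at least 2-fold lower. It went from 3 UMIs (1.57 CPM) to 123 UMIs (94.1 CPM), a log2 ratio of 5.90 (4.32 to 8.20). Of the 123 UMIs, 120 were in AT2-like cells, the surfactant-producing cells of the alveolus, which held 1 Ly6i UMI at low burden. The 120 UMIs came from 9 of 55 AT2-like cells. A single cell held 51 of them, the highest 3 cells held 87, and 6 cells held 5 or more. After thinning, 0.483% of epithelial-like cells had a Ly6i UMI at low burden and 7.48% at high burden, and without thinning 1.32% and 11.2%. With each cell thinned to 2000 UMIs, which limits the weight of deep cells, 0 low burden cells had a Ly6i UMI. With 3 UMIs put in place of the 0, the log2 ratio was then 3.90, so it does not show a smaller difference. Metastatic-like cells, which made up most of the UMIs of the same library, had Ly6i at 3.06 CPM.

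The 9 AT2-like cells with a Ly6i UMI and the 46 without one were set side by side as a description. Both sets held the surfactant gene Sftpc, at 175118 and 197833 CPM, and a median of 1 myeloid marker gene. The gate used Sftpc and let in only cells with few myeloid markers, so these values were limited in advance. They cannot show whether myeloid RNA was mixed in. The 15 myeloid marker genes summed to 18416 CPM in the cells with Ly6i and 14473 CPM in those without. The 35 interferon-induced genes summed to 5253 CPM with Ly6i and 2017 CPM without. Ly6e was at 1742 and 817 CPM, Ly6c1 at 392 and 105 CPM and Ly6a at 314 and 371 CPM. Ly6d was at 122 and 20.4 CPM and Ly6c2 at 26.1 and 14.6 CPM. The median depth was 14597 UMIs with Ly6i and 6515 UMIs without, and its part in these differences was not tested.

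**Figure D4:**
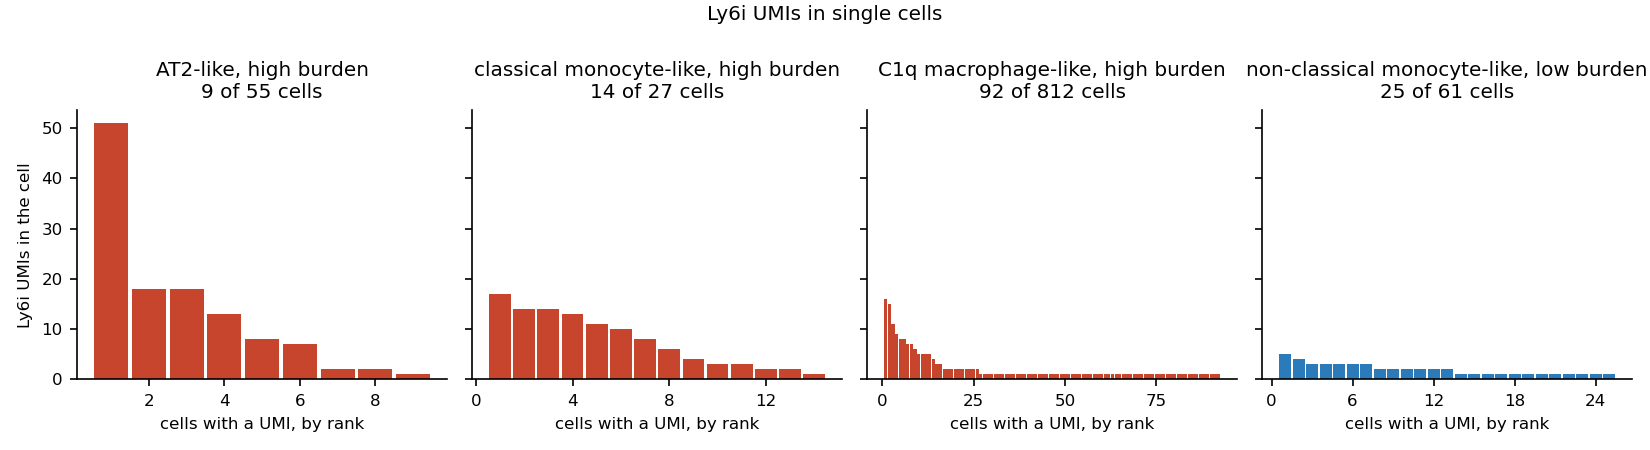
Ly6i UMIs in each cell that had any, ranked within a subclass and library. In AT2-like cells at high burden 9 of 55 cells have a UMI and 1 of them holds 51.

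In myeloid-like cells at high burden, in contrast to the AT2-like cells, cells with a Ly6i UMI had more Ly6a than cells without. Ly6a was at 2170 and 725 CPM in 14 and 13 classical monocyte-like cells with and without Ly6i, at 1063 and 472 CPM in 92 and 720 C1q macrophage-like cells, and at 1610 and 236 CPM in 13 and 86 dendritic-like cells. The interferon-induced genes summed to 8496 and 7473 CPM in the classical monocyte-like, 6150.1 and 5120.2 CPM in the C1q macrophage-like and 9517 and 3640.2 CPM in the dendritic-like cells. In non-classical monocyte-like cells at low burden this sum was lower with Ly6i, at 6854 CPM in 25 cells beside 7596 CPM in 36 cells. The depth of cells with and without Ly6i was close. The medians were 7688 and 8449 UMIs in classical monocyte-like, 10668 and 10412 UMIs in C1q macrophage-like and 7499 and 7491 UMIs in dendritic-like cells. The 15 myeloid marker genes summed to 39878 and 14017 CPM in the classical monocyte-like cells with and without Ly6i. The sums were 25145 and 24425 CPM in C1q macrophage-like and 7538 and 5906 CPM in dendritic-like cells. How far the kind of cell differed between these sets was not tested.

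Ly6e and Ly6a were also higher in AT2-like cells at high burden. Ly6e was at 556 and 1049.5 CPM (log2 ratio 0.92, 0.72 to 1.12). Ly6a was at 155 and 356 CPM (log2 ratio 1.198), and 43 of its 163 UMIs at high burden came from 1 cell. Ciliated-like cells, which move mucus along the airway, held 329 and 216 CPM of Ly6a and 657 and 599 CPM of Ly6e. Over the epithelial-like class the log2 ratio was 0.39 for both genes, with intervals of 0.19 to 0.59 for Ly6a and 0.27 to 0.52 for Ly6e. Under a stricter gate the log2 ratio of Ly6a in epithelial-like cells was -0.00.

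Stromal-like cells showed opposite differences of Ly6a and Ly6e. Ly6a was at 709 CPM (677 to 743) at low burden and 357 CPM (324 to 392) at high burden, a log2 ratio of -0.99 (-1.15 to -0.84) that lay just short of 2-fold. Ly6c1 was at 300.0 and 92.9 CPM, a log2 ratio of -1.69 (-1.99 to -1.41). Ly6e was at 243 CPM (224 to 263) and 552 CPM (511 to 595), a log2 ratio of 1.18 (1.02 to 1.34). Ly6e was the 1 member at least 2-fold higher at high burden, as were 8.35% of 10152 genes, and Ly6c1 the 1 member at least 2-fold lower, as were 14.6%. The log2 ratio of Ly6e fell short of 2-fold both with cells thinned to 2000 UMIs (0.98) and under the stricter gate (0.99).

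The stromal-like difference of Ly6a was not shared by its subclasses. Adventitial fibroblast-like cells, which line vessels and airways and in which Sca-1 is a known marker, held 1195 CPM of Ly6a at low burden (266 cells) and 593 CPM at high burden (31 cells), a log2 ratio of -1.01 (-1.22 to -0.80). Alveolar fibroblast-like cells held 167 CPM (177 cells) and 399.9 CPM (31 cells), a log2 ratio of 1.26 (0.87 to 1.64), and 33 of the 100 UMIs at high burden came from 1 cell. Ly6c1 in adventitial fibroblast-like cells was at 473 and 212 CPM (log2 ratio -1.16, -1.52 to -0.81), with 0.40 and 0.36 Ly6c1 UMIs per Ly6a UMI. In alveolar fibroblast-like cells Ly6c1 was at 107 and 68.0 CPM. Ly6e was higher at high burden in both, at 271 and 446 CPM in adventitial (log2 ratio 0.72) and 175 and 528 CPM in alveolar fibroblast-like cells (log2 ratio 1.59, 1.24 to 1.95). The 12 mesothelial-like cells at high burden, from the lining of the lung, held 1168 CPM of Ly6e.

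Metastatic-like cells, the 1206 carcinoma cells of the high burden lung, expressed Ly6a at 575 CPM (567 to 584) and Ly6e at 932 CPM (921 to 943). Ly6c1 was at 86.9 CPM, which is 7.70% of the endothelial-like level beside 2.03% for the endothelial markers, with a single cell that held 63 UMIs. Ly6d was at 7.09 CPM, Ly6c2 at 4.13 CPM and Ly6i at 3.06 CPM. After thinning, 68.2% of the metastatic-like cells had a Ly6a UMI and 90.2% a Ly6e UMI, and without thinning 98.9% and 99.9%. Their Ly6a level did not differ from the 565 CPM of the myeloid-like cells beyond the counting intervals. These cells were no reference for low burden, where none were found.

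**Figure D5:**
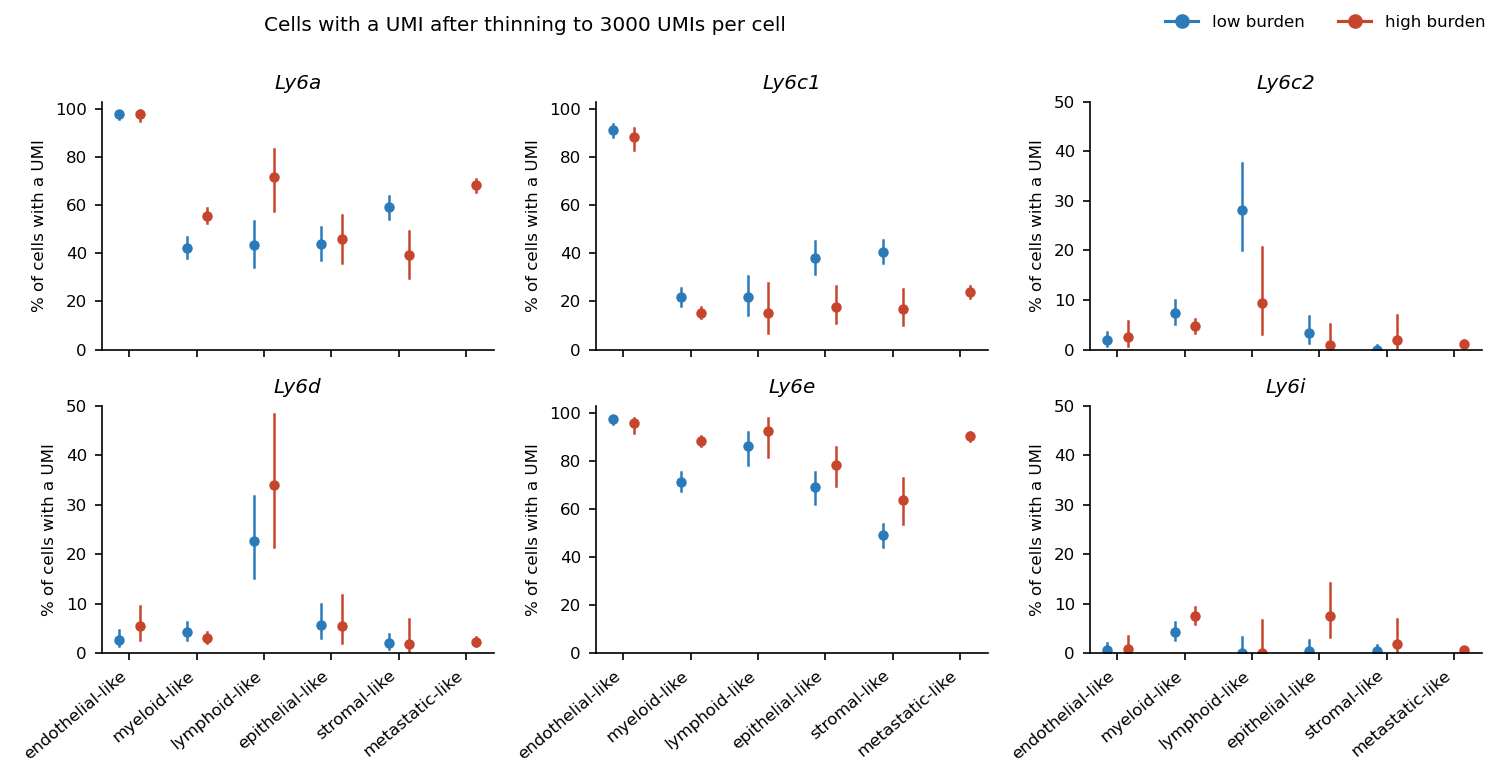
Share of cells with a UMI of each Ly6 gene, in percent, after each cell was thinned to 3000 UMIs, by class and library, with exact 95% intervals. Ly6a and Ly6e are found in 95.5% to 98.02% of endothelial-like cells, and the Ly6a share of lymphoid-like cells is 43.6% at low and 71.7% at high burden.

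The order of the classes differed between the members. At low burden Ly6e was highest in endothelial-like cells, followed by lymphoid-like (1144 CPM), myeloid-like (825 CPM), epithelial-like (541 CPM) and stromal-like cells (243 CPM), with no overlap of neighbouring intervals. At high burden the order was the same, and the levels lay closer to each other, between 552 CPM in stromal-like and 1415 CPM in endothelial-like cells. Ly6a at low burden was followed in stromal-like (709 CPM), lymphoid-like (298 CPM), epithelial-like (229 CPM) and myeloid-like cells (199.5 CPM), of which the last pair had overlapping intervals. At high burden lymphoid-like cells (881 CPM) stood next to the endothelium, and stromal-like (357 CPM) and epithelial-like cells (299.8 CPM) came last with overlapping intervals.

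Interferon-induced genes were counted in the same classes as the pathway to which several Ly6 genes belong. Of the 35 genes listed, 34 were measured in endothelial-like cells, with 4 at least 2-fold higher and 2 at least 2-fold lower at high burden, and a median log2 ratio of -0.11 beside -0.09 over all genes. In myeloid-like cells 23 of 34 were higher and 0 lower (median 1.46, beside -0.11). In epithelial-like cells 19 of 24 were higher and 0 lower (median 1.60, beside -0.15), and in stromal-like cells 24 of 32 were higher and 1 lower (median 1.57, beside -0.12). In lymphoid-like cells 4 of 20 were higher and 1 lower (median 0.53, beside -0.01). The shares of all genes higher and lower were 5.41% and 5.18% in endothelial-like, 10.5% and 16% in myeloid-like and 3.53% and 8.49% in epithelial-like cells. They were 8.35% and 14.6% in stromal-like and 6.93% and 11.8% in lymphoid-like cells. The list was not counted by subclass, and the myeloid-like subclasses differed between the libraries. Ifitm3, a membrane protein that blocks virus entry, was at 2852 and 2711 CPM in endothelial-like cells (log2 ratio -0.07). Its log2 ratio was 0.72 in myeloid-like, 0.42 in lymphoid-like, 1.06 in epithelial-like and 0.75 in stromal-like cells. Psmb8, a subunit of the immunoproteasome, was at 72.7 and 297 CPM in stromal-like cells (log2 ratio 2.03). Its log2 ratio was -0.14 in endothelial-like, 0.91 in myeloid-like, 0.73 in lymphoid-like and 1.59 in epithelial-like cells. That of Psmb9 was -0.74 in endothelial-like and 0.48 in myeloid-like cells. Ifi27l2a was at 219.9 CPM and 789 CPM in myeloid-like cells (log2 ratio 1.84) and at 23.6 and 172 CPM in epithelial-like cells (log2 ratio 2.87). Its log2 ratio was 0.85 in lymphoid-like and 0.82 in stromal-like cells.

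Other genes of the Ly6/uPAR family were sparse. Of 40 listed, 34 were in the tables and 10 reached 20 CPM in a class or subclass of at least 20 cells. Gpihbp1, which carries lipoprotein lipase across the capillary wall, was at 1014 and 775 CPM in endothelial-like cells, with 1245 CPM in general capillary-like and 505 CPM in aerocyte-like cells at low burden, the reverse of the order of Ly6a. Plaur, the urokinase receptor, was at 249 and 101 CPM in myeloid-like cells and at 502 CPM in non-classical monocyte-like cells at low burden. Lypd2 was at 122 and 228 CPM in epithelial-like cells and at 171 and 137 CPM in the ciliated-like cells among them. The ciliated-like cells held 113 of its 232 epithelial-like UMIs at low burden and 47 of 298 at high burden. At high burden Lypd2 was among the 10 leading genes of the 17 club-like cells. Slurp1, a secreted member, was at 26.4 and 159.7 CPM in stromal-like cells, and it led the genes of the mesothelial-like cells, which were 6 of 511 and 12 of 102 stromal-like cells. Cd59a, which protects cells from complement, was at 90.7 and 63.6 CPM in stromal-like cells, and Bambi, a decoy receptor for TGF-beta, at 79.9 and 46.4 CPM. Lynx1 (29.96 CPM in stromal-like cells), Cd59b (23.2 CPM in alveolar fibroblast-like cells) and Ly6k (20.9 CPM in AT2-like cells) were near the limit at low burden, and Ly6g5b rested on 3 UMIs. Ly6g, which marks neutrophils, had 1 UMI at low burden and 11 UMIs at high burden. The count of these genes past 2-fold, higher and lower, was 0 and 2 of 6 measured in endothelial-like, 0 and 2 of 5 in myeloid-like, 0 and 1 of 3 in lymphoid-like, 0 and 1 of 8 in epithelial-like and 2 and 2 of 9 in stromal-like cells. Over all genes the shares higher and lower were 5.41% and 5.18%, 10.5% and 16%, 6.93% and 11.8%, 3.53% and 8.49%, and 8.35% and 14.6% in the same order of classes, and with 3 to 9 genes measured per class nothing is read from these counts.

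The genes most like each member were found by the Pearson correlation of log2(CPM + 10) over 29 groups of subclass and library with at least 20 cells, among 9151 genes. The groups share 2 libraries and the markers that defined them, so the values are a description. Ly6c1 was followed most closely by Bmpr2 (r = 0.93), a BMP receptor, Ramp2 (0.93), an endothelial marker of the gate, and Unc45b (0.92). Ly6d was followed by the B cell receptor genes Cd79a and Cd79b (both 0.93), which the gate used, and Mzb1 (0.90). Genes like Ly6c2 included Pyhin1 (0.85) and Itgb7 (0.82). Ly6a (Pik3r3 and Hilpda, both 0.80, and Pdia5, 0.79), Ly6e (H2-K1, 0.75, and H2-Q7, 0.74) and Ly6i (Clec4e, 0.72, Slc2a6, 0.69, and Gpx1, 0.67) had weaker partners. Between members the values were 0.71 for Ly6a and Ly6c1, 0.50 for Ly6a and Ly6e and -0.33 for Ly6c1 and Ly6c2.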

How the data were processed

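Lungs of 1 low burden mouse and 1 high burden mouse were perfused, dissociated with collagenase and run as droplet libraries. Any batch difference between the libraries cannot be told apart from the burden. The authors aligned the reads with Cell Ranger 2.0.2 to mm10 with the PYMT transgene added and deposited raw UMI counts per gene and barcode. Cells with 1000 to 7000 genes and at most 10% mitochondrial UMIs were kept, which are the limits of the study.

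A marker gene was a hit in a cell when its count was improbable (Poisson probability under 0.01) for 20% free RNA at the library profile. A cell joined a class with at least 3 hits and at least 2 times the hits of the next class. The 104 and 264 cells with markers of more than 1 class, which include doublets, and the 110 and 112 cells of no class at low and high burden were left out. Of the stromal markers, 6 were dropped because metastatic-like cells carried them. Of 4916 cells in a class, 4773 lay in named clusters of a clustering of the same counts without Ly6 genes. Of these, 4742 (99.4%) had the same class there. The clusters were named by the class markers too, so the match is no separate support. Counted over all cells of a cluster, cells of no class included, the share with the same class was as low as 54% in a stromal-like cluster.

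Counts were summed per class and library as CPM. Levels carry exact Poisson, ratios exact conditional binomial and shares exact (Clopper-Pearson) binomial 95% intervals. Where 1 of the counts of a ratio was 0, 3 UMIs were put in its place, which is not an exact limit. Scaling by the median of ratios moved the median of all genes by -0.09 (endothelial-like), -0.12 (myeloid-like), -0.01 (lymphoid-like), -0.15 (epithelial-like) and -0.12 (stromal-like) on the log2 scale. The Ly6 genes and all gene lists were chosen with earlier results of these data known, and the scoring of the gates was set after the counts were seen. Named genes were the 6 members, family genes of at least 20 CPM, up to 4 interferon-induced genes per class by UMI total (a selection is printed) and the 3 genes most like each member, of which some are not reported here. The scripts ran in Python 3.11.15 with numpy 2.4.6, scipy 1.17.1, pandas 2.3.3 and leidenalg 0.10.2, and were tested on simulated data. Alternatives covered the gate, clusters, cell filter, scaling, UMI minimum, free RNA, depth, single cells, the sum of Ly6c1 and Ly6c2, and the mix of subclasses.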

Additional observations from a re-analysis of the deposited data

Results flagged for a closer look

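The log2 ratio of Ly6a between high and low burden was 1.56 in lymphoid-like cells and -0.99 in stromal-like cells, a gap of 2.55. The direction was opposite in these classes, and the difference was not tested, since each group has 1 library.

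The log2 ratio of Ly6e was 1.18 in stromal-like cells and -0.46 in endothelial-like cells, a gap of 1.65. This difference of opposite directions was not tested either.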

How the results depend on the processing

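Over 270 class ratios of the members under 11 alternatives, 216 stayed inside the counting interval of the reported value, 54 moved outside it and 0 of the values past 2-fold changed sign. The number of members past 2-fold in endothelial-like cells was 1 instead of 0 when cells with markers of more than 1 class were kept (Ly6i, log2 ratio 1.03) and 1 when expected free RNA was subtracted. In myeloid-like cells it was 2 instead of 4 with classes from clusters, where Ly6d was at -0.40 and Ly6i at 0.99. In epithelial-like cells it was 2 instead of 1 with free RNA subtracted, and in stromal-like cells 1 instead of 2 with cells thinned to 2000 UMIs. Under the stricter gate it stayed at 2, with Ly6a (-1.10) in place of Ly6e (0.99). The cause was not tested. With free RNA subtracted the log2 ratio of Ly6a was 3.30 in myeloid-like, 2.46 in lymphoid-like and 1.26 in epithelial-like cells. That of Ly6c1, not past 2-fold as reported, turned to 0.16 in myeloid-like and 1.73 in lymphoid-like cells. The subtraction took no account of free RNA from metastatic-like cells. Ly6c1 and Ly6c2 summed had a log2 ratio of -1.14 in myeloid-like cells. Weighting the subclasses alike, an alternative chosen after seeing the data, turned Ly6d in lymphoid-like cells from 0.22 to -0.90 and moved Ly6a in stromal-like cells from -0.99 to -0.65. Leaving out the cell with the most UMIs of a gene moved 0 of 25 ratios outside their intervals. Of the 18 genes most like a member, 13 were shared with a pseudocount of 1. No paired analysis was possible because each group has 1 library, and no replicate could be left out. Depth limits Ly6c2, Ly6d and Ly6i in classes where a few UMIs carry the level, and 607 low burden cells under 3000 UMIs did not enter the thinned shares.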

Other observations

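Outside the B-like cells, 15 low burden and 20 high burden cells held at least 5 Ly6d UMIs, a set picked after its values were seen and given with no test. They were spread over several classes, cells of no class and cells with markers of more than 1 class. At low and high burden they held Jchain, the joining chain of antibodies, at 10535 and 5716 CPM, against 75.0 and 3.14 CPM in the remaining cells. Siglech, a surface lectin of plasmacytoid dendritic cells, was at 370 and 262 CPM, against 2.65 and 1.35 CPM. Ccr9, a chemokine receptor of plasmacytoid dendritic cells and gut-homing T cells, was at 82.2 and 144 CPM. Ly6c2 was at 548 and 529 CPM in them, against 35.1 and 8.46 CPM. The B cell gene Cd79a was at 795 and 267 CPM in the same cells.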
